A study of Mus musculus with 10 samples.

Results

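The transcriptomes of intestinal organoids labelled DMBA+TAM and control were compared across the whole gene table, outside the stem cell, differentiated cell, EMT and Wnt genes that the study itself shows. Members were all 47069 genes whose identifier in the deposited table begins with ENSMUSG, out of 47074 lines. Of these, 22600 had at least 1 count in the 4 libraries compared and 16179 passed the filter on low counts and were tested, 138 of them genes of the lists left out here. The mice that gave the organoids were C57BL/6, carried *Lgr5-EGFP-CreERT2* and were homozygous for floxed *Ppp2r1a*; the organoids were grown in Matrigel with Noggin, EGF and R-spondin-1 (NER) for 50 days. Control cultures received saline. DMBA+TAM cultures received DMBA, a polycyclic aromatic hydrocarbon that becomes a DNA-binding carcinogen after oxidation by cytochrome P450 enzymes, together with tamoxifen, which switches on Cre in *Lgr5*-expressing cells only. Both groups carry the floxed alleles and the Cre transgene, so they differ in DMBA and tamoxifen together, and neither agent alone is part of this comparison. The series holds 10 libraries in 5 groups, with 2 libraries each. The labels number the replicates and do not say whether they came from separate mice or cultures, so the p-values measure the spread between these samples, which may be technical.

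An organoid of intestinal crypts is an epithelial structure in which Lgr5+ stem cells give rise to absorptive enterocytes and to secretory goblet, Paneth and enteroendocrine cells. Enterocytes carry a brush border of actin-filled microvilli, digest sugars and peptides at its surface, and take up fat, sugar and amino acids. Matrix proteins such as fibrillar collagens are made mainly by fibroblasts and related connective tissue cells, macrophages are marked by complement C1q and lysozyme M, and neither cell type arises from crypt epithelium. PP2A is a serine/threonine phosphatase built from a scaffold, a catalytic and a regulatory subunit, and *Ppp2r1a* encodes the main scaffold.

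Gene counts summed to 10291026 and 9994298 in control and to 1592366 and 1915270 in DMBA+TAM. A level of 3 counts, used here as the floor for a gene at or near 0, stood for 0.339 and 0.361 normalized CPM (CPM after TMM scaling of the libraries) in control and for 1.58 and 1.32 in DMBA+TAM. Scaled to the smallest library, 15722 and 15723 genes would be expected with a count in control, against 16124 and 16313 in DMBA+TAM. The number of genes that made up 50 percent of the counts was 612 and 589 in control and 814 and 837 in DMBA+TAM. *Ppp2r1a* (chromosome 17 of GRCm38, plus strand, 20945311 to 20965916) had 1087 and 1074 counts in control and 245 and 302 in DMBA+TAM, or 126 ± 4.56 and 131 ± 2.63 normalized CPM (mean ± SD, n = 2). Its log2 fold change was 0.06 (SE 0.11, adjusted p = 0.687). Here and below, adjusted p stands for the Benjamini-Hochberg value of the quasi-likelihood test in edgeR. Scaled by library size alone, it was 0.55 (adjusted p = 0.00559). Its RNA level thus does not check the label, because Cre removes only part of the gene, in *Lgr5*-expressing cells only, and the counts sum all exons. The names of the libraries (NS for control, Lgr5 for DMBA+TAM) do not spell out a treatment either, so the groups are named here as the labels give them. *Epcam*, the adhesion molecule found on all intestinal epithelial cells, had 21799 and 21375 counts in the libraries labelled control and 3 in each library labelled DMBA+TAM, at least 1734-fold lower. The DMBA+TAM libraries therefore hold almost none of the marker that defines the labelled tissue, and in bulk RNA fewer cells of a type and less RNA per cell cannot be told apart.

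The difference between the groups reached most of the transcriptome. At an adjusted p under 0.05, 4687 genes were higher in DMBA+TAM, which is 29.0 percent of those tested, and 5709 were lower, which is 35.3 percent. At least 4-fold higher were 2718 genes (16.8 percent) and at least 4-fold lower 2293 (14.2 percent). The median log2 fold change of all genes tested was -0.17, with quartiles of -1.23 and 1.20. Both DMBA+TAM values lay above both control values in 5874 genes (36.3 percent of those tested) and below them in 7471 (46.2 percent). Groups without overlap were thus the usual case. Of the genes called higher, 478 had at most 3 counts in each control library, and of those called lower, 1201 had at most 3 counts in each DMBA+TAM library. Across genes, log2(FPKM + 1) correlated with r = 0.994 between the control replicates, 0.975 between the DMBA+TAM replicates and 0.827 between the group means; genes are not independent replicates. With scaling by library size only, all log2 fold changes shifted by 0.49, and 62.5 percent of the calls were higher in place of 45.1 percent, with 38.7 percent of all genes tested higher and 23.2 percent lower.

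Long transcripts leaned towards DMBA+TAM. Among the fifth of tested genes with the shortest transcripts the median log2 fold change was -0.58, with 20.1 percent called higher and 40.6 percent lower. In the fifth with the longest transcripts it was 0.15, with 38.2 percent higher and 28.5 percent lower, and the groups between them followed in order at -0.32, -0.17 and -0.00. The part of transcript length in the results below was not tested.

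The most abundant transcripts of the DMBA+TAM libraries were those of connective tissue, macrophages and the general cell machinery. By deposited FPKM, which scales by transcript length, the protein-coding genes with the highest mean in DMBA+TAM, outside the mitochondrial genome and the lists left out here, were *Col1a1* (a chain of collagen I, 5292), *Apoe* (a lipoprotein also secreted by macrophages, 5265), *Tmsb4x* (an actin-binding peptide, 4240), *Eef1a1* (a translation factor, 4181), *Actb* (3874), *Lyz2* (lysozyme M, 2760) and *Fstl1* (a secreted glycoprotein of mesenchymal cells, 2653). They were followed by *Tpt1* (2242), *Eif4g2* (2188), the proteoglycan *Bgn* (2060), the ribosomal protein *Rplp1* (2044) and the iron store *Fth1* (1716). In control the highest by the same rule were *Fabp2* (12660), *Defa24* (a Paneth cell defensin, 12580), *Apoa1* (9681), *Reg3b* (a bactericidal lectin, 5785), *Actb* (5498), the peptidase *Anpep* (5115), the retinol carrier *Rbp2* (4396), *Lgals4* (4292), *Fabp1* (3305), *Eef1a1* (3266) and *H2-D1* (3128). Of the 100 most abundant genes of each group, 34 were shared. The collagens *Col3a1* (8868) and *Col1a2* (4111) also rank among the highest of DMBA+TAM but belong to the EMT list of the study, and *mt-Co1* had 4499 in DMBA+TAM and 8256 in control. *Defa24* belongs to a family of near-identical defensin genes between which reads can be split, so its level is uncertain.

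*Col1a1* had 2042 and 1576 counts in control and 14311 and 18891 in DMBA+TAM, although these libraries were about 5.78 times shallower. This is 210.3 ± 29.0 against 7938 ± 544 normalized CPM, a log2 fold change of 5.24 (SE 0.21, adjusted p = 3.64e-08). *Apoe* went from 139 ± 8.51 to 3831 ± 72.7 normalized CPM (log2 fold change 4.79, SE 0.15, adjusted p = 1.2e-08). *Lyz2* went from 78.7 ± 25.5 to 2942 ± 2.18 normalized CPM (log2 fold change 5.23, SE 0.28, adjusted p = 1.9e-07). In each of these genes both DMBA+TAM libraries lay above both control libraries, as in 36.3 percent of all genes tested. *Actb*, abundant in both groups, fell by 1.0 on the log2 scale (SE 0.16, adjusted p = 0.000401).

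The largest falls included genes of the enterocyte surface, of mucosal defence and of fat handling. Among protein-coding genes with more than 3 counts in every library, outside the lists left out here, the 10 largest falls had at least 15557 counts in each control library and at most 22 in each DMBA+TAM library. *Mgam*, which splits starch fragments at the brush border, had 29467 and 27648 counts in control and 6 and 7 in DMBA+TAM (log2 fold change -10.05, SE 0.22, adjusted p = 5.11e-09). The membrane mucin *Muc13* had 24054 and 24853 against 8 and 8 (log2 fold change -9.53, SE 0.34, adjusted p = 2.12e-08). The groups did not overlap in either gene, and the replicates differed little. *Muc3*, another membrane mucin, fell by 9.70 on the log2 scale, *Lypd8*, which keeps bacteria from the epithelium, by 9.31, *Pigr*, the receptor that carries IgA across the epithelium, by 9.30, and the lectin *Lgals4* by 9.19. *Krt8*, the keratin of simple epithelia, fell by 9.18, *Mttp*, which loads fat onto lipoproteins, by 9.02, *Dmbt1*, a mucosal scavenger receptor, by 8.99 and *Smim24* by 8.89, with adjusted p between 5.11e-09 and 4.38e-08 over all 10. Genes with more than 3 counts in only 1 DMBA+TAM library belong to neither set, among them *Apoa1*, with 78063 and 82670 counts against 1 and 5. Other genes had no more than 3 counts in either DMBA+TAM library, so that only a bound can be given. *Fabp2*, the intestinal fatty acid binding protein, had 131688 and 116245 counts in control and 0 and 3 in DMBA+TAM, at least 9944-fold lower. *Defa24* was at least 4292-fold lower, *Sis* (sucrase-isomaltase) at least 2869-fold, *Slc5a1* (the sodium-glucose cotransporter) at least 2815-fold and *Reg3b* at least 2773-fold.

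The largest rises took in genes of inflammation, macrophages and matrix, and a set of skeletal muscle genes that is described separately because it was high in 1 DMBA+TAM library. *Hp*, the haemoglobin scavenger haptoglobin, had 4 and 10 counts in control and 4055 and 2009 in DMBA+TAM (0.828 ± 0.532 against 1513 ± 888 normalized CPM, log2 fold change 10.82, SE 0.66, adjusted p = 4.13e-07). *F13a1*, the A subunit of clotting factor XIII that tissue macrophages make, had 13 and 14 against 1623 and 1630 counts (log2 fold change 8.95, SE 0.33, adjusted p = 2.25e-08). *Ccl8*, a chemokine that draws monocytes, had 11 and 6 against 854 and 1050 counts (log2 fold change 8.83, SE 0.41, adjusted p = 7.08e-08). Among *Hp*, *F13a1* and *Ccl8* the gap between replicates was widest in *Hp*. The rule took only rises with both DMBA+TAM libraries above both control libraries, so this adds nothing for these genes. The collagen-binding proteoglycan *Fmod* rose by 8.83 on the log2 scale, the collagen cross-linking enzyme *Lox* by 8.64, the myeloid receptor *Fcrls* by 8.57, the network-forming collagen *Col8a1* by 8.16 and the acute phase protein *Saa3* by 8.06, with adjusted p between 8.95e-09 and 6.04e-06. *Col10a1*, the collagen of hypertrophic cartilage, had 0 counts in both control libraries and 3065 and 2068 in DMBA+TAM, at least 3610-fold higher.

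**Figure D1:**
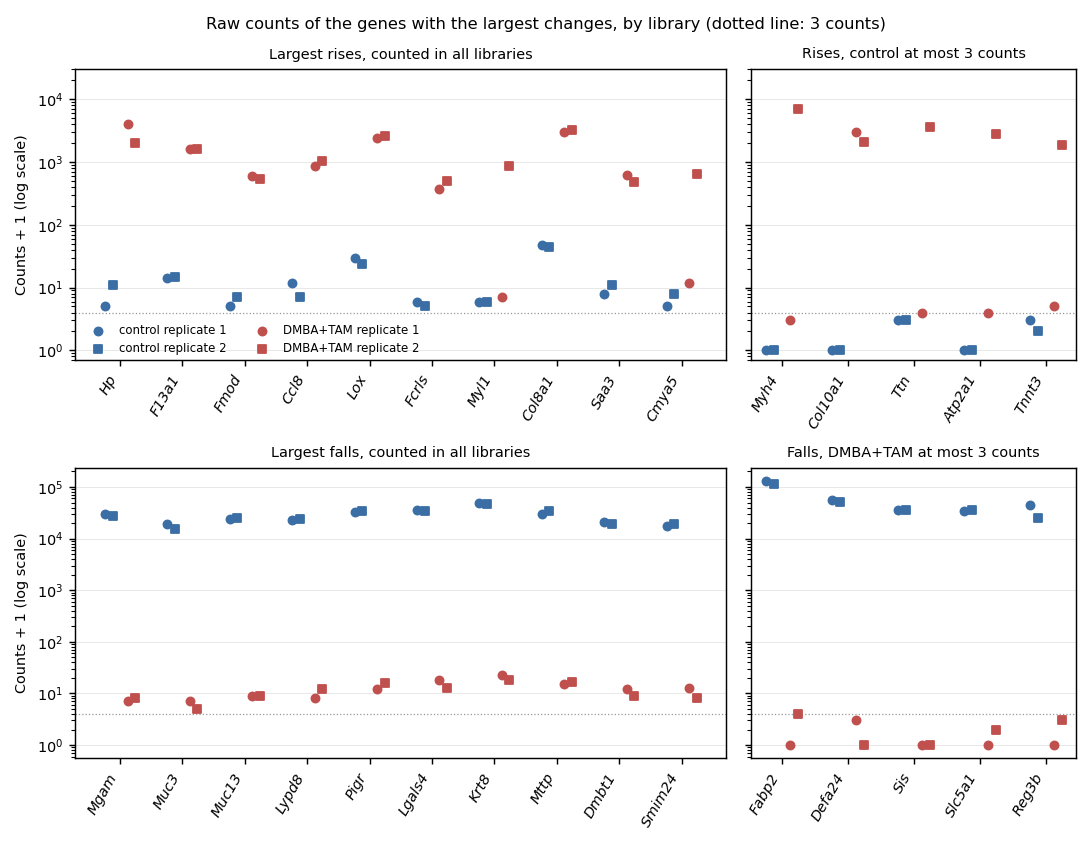
Raw counts plus 1 (log axis) of the genes with the largest rises (top) and falls (bottom) in the 2 control (blue) and 2 DMBA+TAM (red) libraries; circles are replicate 1, squares replicate 2, and the right panels show genes with at most 3 counts per library in the lower group. *Fabp2* goes from at least 116245 counts in control to 3 or fewer in DMBA+TAM, and in *Myl1*, *Cmya5*, *Myh4*, *Ttn*, *Atp2a1* and *Tnnt3* only the square of DMBA+TAM is high.

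DMBA+TAM replicate 2 stood apart from replicate 1 in skeletal muscle genes. *Myh4*, the myosin heavy chain of fast muscle fibres, had 0 counts in both control libraries, 2 in DMBA+TAM replicate 1 and 7004 in replicate 2. *Ttn*, the giant elastic protein of the sarcomere, had 2 and 2 counts in control, then 3 and 3623. *Acta1*, skeletal muscle actin, had 10 and 11 counts in control, then 1 and 4740. Only 1 of the 2 DMBA+TAM libraries was thus high in these genes, and the other held at most 3 counts of each. The calcium pump *Atp2a1* (3 and 2796 counts in DMBA+TAM), the troponin *Tnnt3* (4 and 1881), the light chain *Myl1* (6 and 853) and *Cmya5* (11 and 652) split in the same way, so the rule that named the largest rises took them from a single library. In all, 32 tested genes had at least 50 counts in replicate 2 and at most 3 in replicate 1, of which 30 were called higher than control, and 0 genes had the opposite split. All 13 tested genes of the skeletal muscle list were called higher with both libraries, against 29.0 percent of all genes tested. Without DMBA+TAM replicate 2, 2 of 12 were higher and 1 lower, and *Myl1* had a log2 fold change of 2.39 in place of 8.32. *Myl1*, *Cmya5*, *Ttn* and *Atp2a1* were still called higher from the few counts of replicate 1 (adjusted p = 0.0272, 0.00945, 0.0463 and 0.0401). The list took 0.00157 percent of the counts of replicate 1 and 1.47 percent of those of replicate 2. Marker lists of fat cells and red blood cells had a larger share in replicate 1 than in replicate 2, but were above control in both.

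**Figure D2:**
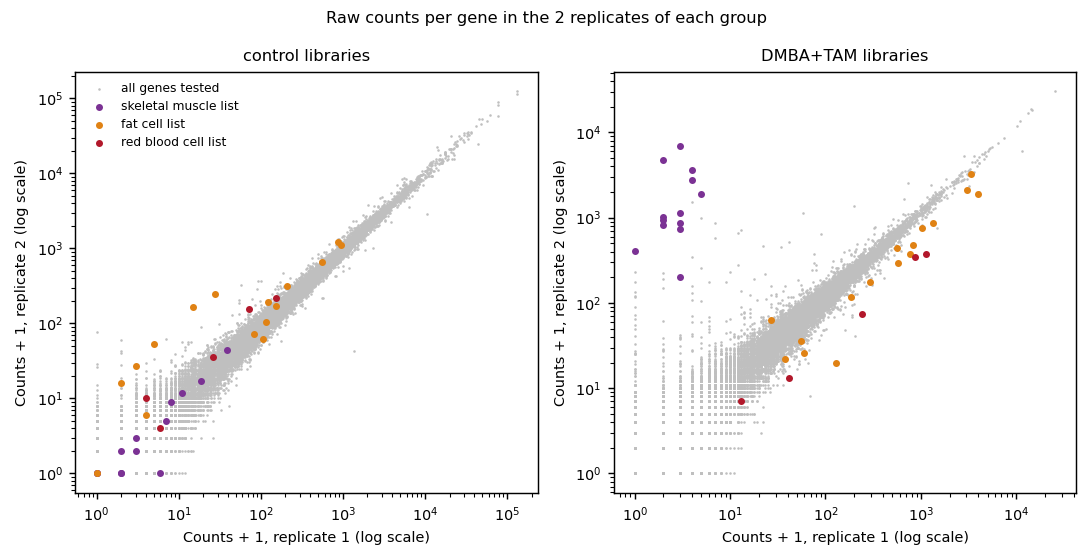
Raw counts plus 1 per gene (log axes) in replicate 1 (horizontal) and replicate 2 (vertical) of control (left) and DMBA+TAM (right), with all tested genes in grey and 3 marker lists in colour. In DMBA+TAM the skeletal muscle genes (purple) lie far above the diagonal, such as *Myh4* with 2 and 7004 counts, and the fat cell (orange) and red blood cell (red) genes mostly below it.

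Promoter sequences are shown for 2 genes among the largest falls and 2 among the largest rises that hold a searched motif close to their start, so that the letters can be read beside the changes. They are the 250 bases before the start of each gene, 5′ to 3′ on the strand of the gene, from RefSeq on GRCm38.p6, and capitals mark a match, on either strand, to the TATA box (letters TATAAA), the GATA site (letters AGATAAG) or the AP-1 site (letters TGANTCA). *Mgam* (chr6:40628581-40628830, plus strand) has a GATA match that begins 67 bases before the start and a TATA match that begins 30 bases before it. *Muc13* (chr16:33793787-33794036, plus strand) has an AP-1 match 61 bases before its first start. *Ccl8* (chr11:82114935-82115184, plus strand) and *Col10a1* (chr10:34389731-34389980, plus strand) each have a TATA match 32 bases before the start.
Mgam: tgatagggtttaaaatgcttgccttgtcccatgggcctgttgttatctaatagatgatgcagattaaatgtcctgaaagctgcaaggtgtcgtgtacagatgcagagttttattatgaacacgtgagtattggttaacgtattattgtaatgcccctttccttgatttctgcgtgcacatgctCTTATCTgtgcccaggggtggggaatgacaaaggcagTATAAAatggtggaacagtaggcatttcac
Muc13: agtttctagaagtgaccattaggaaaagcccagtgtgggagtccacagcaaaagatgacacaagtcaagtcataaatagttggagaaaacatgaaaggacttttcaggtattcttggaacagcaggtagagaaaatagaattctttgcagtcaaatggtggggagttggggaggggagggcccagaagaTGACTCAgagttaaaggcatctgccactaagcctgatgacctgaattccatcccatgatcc
Ccl8: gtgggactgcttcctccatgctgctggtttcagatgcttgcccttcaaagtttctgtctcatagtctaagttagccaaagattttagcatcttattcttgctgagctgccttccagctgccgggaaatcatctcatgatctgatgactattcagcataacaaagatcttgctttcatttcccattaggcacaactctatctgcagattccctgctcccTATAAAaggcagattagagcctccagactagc
Col10a1: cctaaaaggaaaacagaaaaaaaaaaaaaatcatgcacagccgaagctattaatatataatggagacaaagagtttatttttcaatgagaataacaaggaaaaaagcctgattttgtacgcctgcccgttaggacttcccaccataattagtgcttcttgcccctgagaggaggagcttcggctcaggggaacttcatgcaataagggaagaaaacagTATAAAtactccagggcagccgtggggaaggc

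Beside these 3 motifs, CAAAGTCCA (HNF4 site) and GAGGAAGT (PU.1 site) were searched in the same way, and no motif overlaps another in the sequences shown. RefSeq promoters were found for 11930 of the tested genes, some of them with several starts. The HNF4 letters stood in 1.10 percent of the promoters of genes at least 4-fold lower (22 of 1997), in 0.317 percent of those at least 4-fold higher (8 of 2520), in 0.408 percent of all tested genes and in 0.384 percent of all 32851 promoters. The PU.1 letters stood in 2.90, 3.93, 2.59 and 2.44 percent, in the same order. The AP-1 letters stood in 7.46 and 6.94 percent of the 2 changed groups and in 5.03 percent of the tested genes, the TATA letters in 9.81 and 9.60 percent against 7.38, and the GATA letters in 2.80 and 2.06 percent against 1.93. Over all 32851 promoters the AP-1, TATA and GATA letters stood in 6.75, 12.4 and 2.74 percent. These are counts of letters and were not tested. *Hnf4a*, which encodes the factor that gives the HNF4 site its name, had 8627 and 7817 counts in control and 4 and 1 in DMBA+TAM (log2 fold change -9.62, SE 0.31, adjusted p = 1.27e-08). *Spi1*, which encodes PU.1, a factor of myeloid cells, had 18 and 27 against 154 and 192 counts (log2 fold change 4.97, SE 0.24, adjusted p = 8.82e-08).

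Lists of epithelial genes fell almost throughout, against 35.3 percent lower and 29.0 percent higher of all genes tested. Of 31 tested genes of epithelial junctions and keratins, 29 were lower and 0 higher, with a median log2 fold change of -8.82 against -0.17 over all genes. Since 20 of them had at most 3 counts in both libraries of a group, the median with these genes at their bound was -6.47. *Cdh17*, the cadherin of the intestine, had 24762 and 22888 counts in control and 2 and 1 in DMBA+TAM, at least 1913-fold lower, and *Krt20*, the keratin of mature enterocytes, had 27133 and 28408 against 11 and 1. All 17 brush border genes were lower (median -10.05, or -7.54 at the bounds), among them *Vil1* (villin, 33842 and 33447 counts against 1 and 1) and *Pls1*, each at least 1342-fold. *Ezr*, which links the membrane to actin also in other cells, fell less, with 13819 and 14670 against 58 and 76 counts (log2 fold change -5.70, SE 0.21, adjusted p = 2.25e-08). All 17 tested digestive hydrolases were lower (median -10.05, or -7.93 at the bounds), and *Sis* had 0 counts in both DMBA+TAM libraries against 36255 and 35162. Their list took 2.73 and 2.85 percent of the counts in control and 0.103 and 0.099 in DMBA+TAM. In the other 6 libraries of the series it took 0.0671 to 1.97 percent, so that the lowest of these lay below DMBA+TAM. The smallest fall in this list was that of the guanine deaminase *Gda* (log2 fold change -1.50, SE 0.20, adjusted p = 8.99e-05).

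Uptake and handling of nutrients fell with them, where 35.3 percent of all genes tested were lower and 29.0 percent higher. Of 26 transporter genes 25 were lower and 0 higher (median -9.25, or -6.45 at the bounds), with *Slc15a1* (peptides), *Slc6a19* (neutral amino acids) and *Slc2a2* (glucose) at 0 counts in both DMBA+TAM libraries. *Slc7a8*, an amino acid exchanger, had 3734 and 3803 counts against 59 and 113 (log2 fold change -3.43, SE 0.26, adjusted p = 1.81e-06). Of 22 genes of fat absorption and lipoproteins 21 were lower (median -10.19, or -8.49 at the bounds). The list took 4.09 and 4.52 percent of the counts in control and 0.0602 and 0.0532 percent in DMBA+TAM. In the other 6 libraries of the series it took 0.077 to 1.97 percent. *Apob*, the scaffold of chylomicrons, had 34488 and 32669 against 0 and 1 counts. The exception was *Apobec1*, the enzyme that edits *Apob* RNA, which rose by 1.08 on the log2 scale (SE 0.23, adjusted p = 0.00207).

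Mucosal defence and the transcription factors of the gut followed the same direction. Of 26 defence genes, 22 were lower and 0 higher (median -8.17, or -7.57 at the bounds). Of 27 gut transcription factors 26 were lower and 0 higher (median -7.70, or -3.56 at the bounds). *Hnf4g*, the partner of *Hnf4a*, had 3312 and 2736 counts in control and 0 in both DMBA+TAM libraries, at least 242-fold lower. *Cdx2*, which sets intestinal identity, had 1404 and 1388 against 1 and 0 counts, at least 112-fold lower. The smallest falls were those of *Klf4* (log2 fold change -1.46) and *Maf* (log2 fold change -1.02), which other tissues also express. In a list of 9 tested genes of fetal-like, regenerating epithelium, 5 were higher and 3 lower (55.6 and 33.3 percent, median 2.26). Of all genes tested 29.0 percent were higher and 35.3 percent lower, so that the share lower is near that of all genes. *Ly6a* (Sca-1), *Gja1*, *Clu* and *Anxa1* rose with log2 fold changes from 2.26 to 5.36, and *Anxa8* had 1 and 2 counts in control and 214 and 182 in DMBA+TAM. *Areg*, a ligand of the EGF receptor, and *Krt7* fell to at most 3 counts in each DMBA+TAM library. Cells other than epithelium also express *Ly6a*, *Gja1*, *Clu* and *Anxa1*.

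Genes that activate or clear carcinogens and drugs were mostly lower. Of 41 tested, 31 were lower and 5 higher (75.6 and 12.2 percent, against 35.3 and 29.0 percent of all genes tested, median -7.46, or -3.69 at the bounds). *Cyp4f14* had 11607 and 10144 counts in control and 0 and 1 in DMBA+TAM, at least 872-fold lower, *Ces2e*, a carboxylesterase, 10059 and 10642 against 5 and 2, and *Ugt2b34*, a glucuronosyltransferase, 7398 and 6980 against 2 and 0. The 5 that rose include *Cyp1b1*, the cytochrome P450 that oxidises DMBA outside the liver, with 98 and 109 counts in control and 214 and 493 in DMBA+TAM (log2 fold change 3.77, SE 0.30, adjusted p = 2.36e-06). *Ephx1*, the epoxide hydrolase that acts after it in this pathway, rose by 2.32 on the log2 scale (SE 0.22, adjusted p = 8.08e-06). *Ahr*, the receptor that senses such hydrocarbons, rose by 1.34 on the log2 scale (adjusted p = 0.000236), and its partner *Arnt* by 0.56 (adjusted p = 0.00272). In all 4 genes both DMBA+TAM libraries were above both control libraries after scaling, as in 36.3 percent of all genes tested. *Sult1a1*, a sulfotransferase, was the fifth (log2 fold change 2.33). Of 4 other genes of the same receptor pathway, picked from the list after their values were seen, 3 were lower. The hydrocarbon-induced *Cyp1a1* had 11 and 43 counts in control and 0 in both DMBA+TAM libraries, at least 2.21-fold lower (adjusted p = 0.0335), the quinone reductase *Nqo1* fell by 3.69 and *Tiparp*, a target and repressor of *Ahr*, by 0.82. *Ahrr*, the repressor that *Ahr* induces, was not called, with 12 and 14 counts in control and 1 and 4 in DMBA+TAM (log2 fold change -0.35, adjusted p = 0.68, and 0.14 with library size only). *Cyp1a1* and *Tiparp* were not called with library size only (adjusted p = 0.0567 and 0.0868), nor was *Cyp1a1* without control replicate 2 or either DMBA+TAM library.

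Collagens and other matrix genes were mostly higher in DMBA+TAM, against 29.0 percent higher and 35.3 percent lower of all genes tested. Of 37 tested collagen genes, which include the collagens of the study's EMT list, 27 were higher and 2 lower, with a median log2 fold change of 3.31 against -0.17 over all genes. Together they took 0.166 and 0.139 percent of the counts in control and 5.54 and 5.44 percent in DMBA+TAM. *Col3a1*, a fibrillar collagen of soft tissue, had 4978 and 4081 counts in control and 25701 and 30504 in DMBA+TAM (log2 fold change 4.68, SE 0.21, adjusted p = 6.93e-08). *Col1a2* and *Col5a2* had log2 fold changes of 5.12 and 5.55. The 2 that fell were *Col6a4* (182 and 204 counts against 0 and 0) and *Col4a6* (17 and 20 against 1 and 1), the latter not called with library size only (adjusted p = 0.0837). Of 40 other matrix genes 39 were higher and 0 lower (median 4.02), with *Bgn*, *Fbn1* (fibrillin of microfibrils), *Tnc* (tenascin) and *Thbs1* (thrombospondin) between 5.05 and 5.74, and their share went from 0.136 and 0.126 to 2.83 and 2.71 percent. Of 23 matrix proteases and inhibitors 19 were higher and 2 lower (median 4.46). *Mmp14*, the membrane-bound collagenase, had 208 and 186 against 1482 and 1902 counts (log2 fold change 5.14, SE 0.17, adjusted p = 1.53e-08). The metalloproteases *Mmp10* and *Mmp28* fell by 2.23 and 0.88, and *Mmp28* was not called with library size only (-0.39, adjusted p = 0.399).

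**Figure D3:**
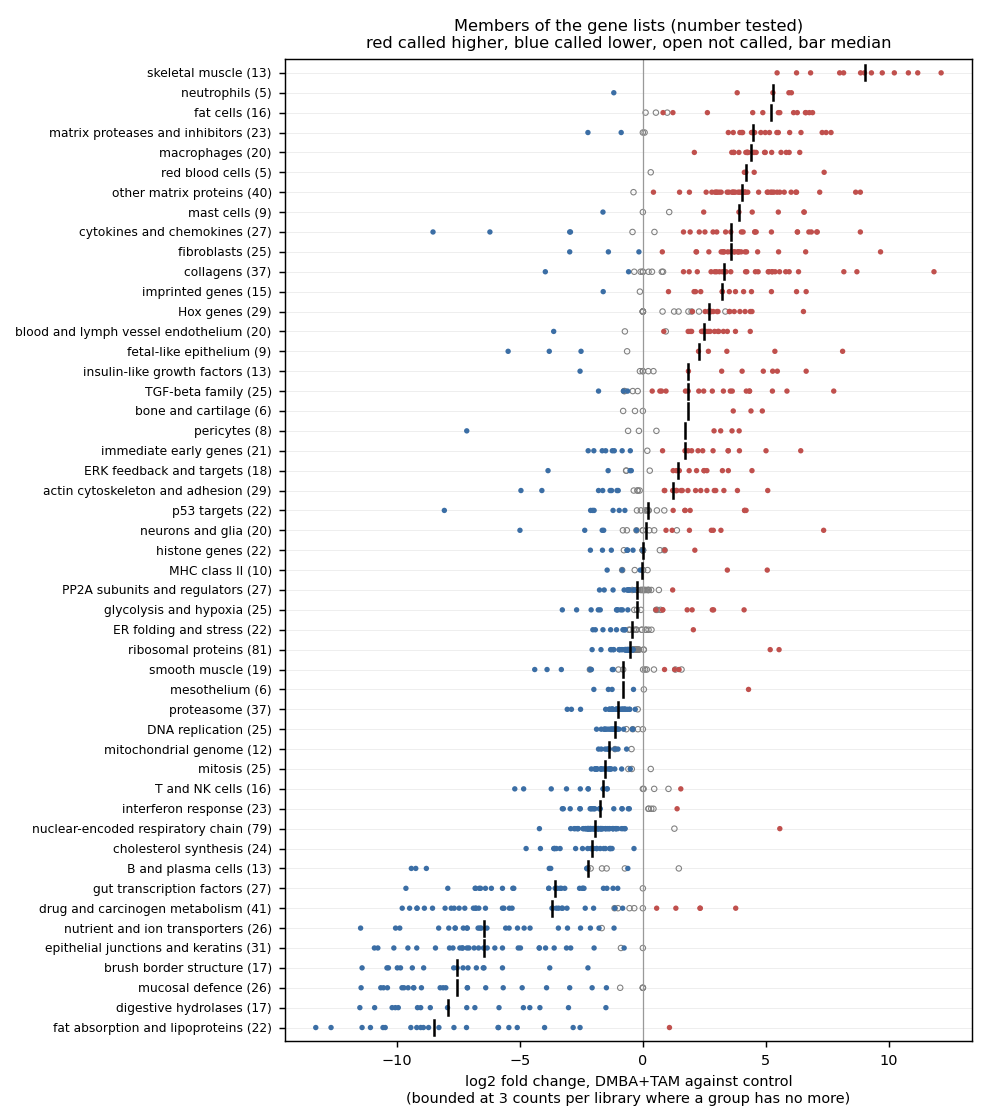
Log2 fold change of DMBA+TAM against control for each tested member of the gene lists with at least 5 tested genes, with genes at or under 3 counts in a group placed at their bound; red points are called higher, blue lower, open ones not called, and the bar is the median. The lists of brush border, hydrolase, transporter and fat absorption genes have medians below -6 and those of matrix, macrophages and fat cells above 3, against -0.17 over all genes.

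Marker genes of cells other than epithelium differed between the groups in both directions. For comparison, 29.0 percent of all genes tested were higher and 35.3 percent lower. All 20 tested macrophage genes were higher (median 4.38), and the list went from 0.0443 and 0.0511 percent of counts in control to 1.27 and 1.21 percent in DMBA+TAM, with 0.0714 to 0.0892 percent in the other 6 libraries of the series. *C1qa* had 464 and 491 against 2021 and 2321 counts, *Csf1r*, the receptor macrophages need to survive, 182 and 197 against 858 and 883, and *Adgre1* (F4/80) 49 and 81 against 800 and 997, with log2 fold changes of 4.23, 4.25 and 5.82. The groups did not overlap in any of the 3, even before scaling. Of 25 tested fibroblast genes 22 were higher and 3 lower (median 3.71, or 3.57 at the bounds, share 0.0425 and 0.0376 against 0.804 and 0.778 percent). *Thy1* rose by 6.61 and *Pdgfra* by 2.18 on the log2 scale. The 3 that fell were *Grem1*, *Foxf1* and *Foxl1*, genes of the mesenchyme under the gut epithelium, and *Foxf1* had 88 and 106 counts in control and 2 and 2 in DMBA+TAM. *Grem1* and *Foxl1* were not called with library size only (adjusted p = 0.127 and 0.0759).

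Of 20 endothelial genes 17 were higher (median 2.49), with *Pecam1* and *Cdh5* at 3.27 and 3.76. Of 16 tested fat cell genes 13 were higher and 0 lower (median 5.18). *Adipoq* (adiponectin) had 4 and 52 counts in control and 822 and 480 in DMBA+TAM (log2 fold change 6.60, SE 0.85, adjusted p = 7.47e-05), and *Lep* (leptin) 0 and 0 against 128 and 19. The fat cell list took 1.02 percent of the counts in DMBA+TAM replicate 1 and 0.571 in replicate 2, against 0.0314 and 0.0445 percent in control. Of 5 tested genes of red blood cells 4 were higher and 0 lower, and the list took 0.145 percent of the counts in DMBA+TAM replicate 1 and 0.0426 in replicate 2, against 0.0025 and 0.00423 percent in control. *Hbb-bs*, a beta globin, had 153 and 220 counts in control and 1136 and 377 in DMBA+TAM (log2 fold change 4.12). *Hba-a2*, an alpha globin nearly identical to its neighbour so that reads may be split between them, was not called (log2 fold change 0.32, adjusted p = 0.582), and its groups overlapped after scaling. Of 20 genes of neurons and glia 7 were higher and 5 lower (against 29.0 and 35.3 percent of all genes tested, median 0.02, or 0.13 at the bounds), and the list took 0.0132 and 0.0106 percent of the counts in control and 0.0293 and 0.029 in DMBA+TAM. The adhesion molecule *Ncam1* rose by 2.78, and *Vip*, a transmitter of enteric neurons, had 429 and 362 counts in control and 0 in both DMBA+TAM libraries. Of 19 smooth muscle genes 7 were lower and 3 higher (36.8 and 15.8 percent), so that the share lower is near that of all genes and the share higher below it. With library size only, 26.3 percent were lower and 31.6 percent higher, against 23.2 and 38.7 percent of all genes. In DMBA+TAM, *Des*, *Tpm2* and *Synm*, none of them called, had 57 and 1122, 197 and 1355, and 75 and 374 counts. Replicate 2, the library with the skeletal muscle genes, was the higher in each. In replicate 1 they lay below both control libraries, at 30.1, 104 and 39.6 normalized CPM. Other members, such as *Myh11*, did not split in this way. The part of replicate 2 in these shares was not tested. *Myh11*, the smooth muscle myosin, fell by 4.39 on the log2 scale, from 9455 and 7099 counts to 85 and 107, whereas *Acta2* and *Tagln*, which activated fibroblasts share, rose by 1.29 and 1.47.

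Lymphocyte genes were lower in DMBA+TAM. The 13 genes of B and plasma cells took 0.348 and 0.388 percent of the counts in control. Their share was 0.00609 and 0.00585 percent in DMBA+TAM and 0.344 to 0.831 percent in the other 6 libraries. Of these genes 7 were lower and 0 higher (53.8 and 0.00 percent, against 35.3 and 29.0 percent of all genes tested, median -7.16, or -2.24 at the bounds). *Igha*, the heavy chain of IgA, had 17798 and 19097 counts in control and 7 and 8 in DMBA+TAM (log2 fold change -9.22, SE 0.60, adjusted p = 6e-07), and *Jchain* 5251 and 5773 against 3 and 1. Of 100 tested immunoglobulin V genes 79 were lower. Of 16 tested genes of T and NK cells 11 were lower and 1 higher (68.8 and 6.25 percent, median -3.16, or -1.61 at the bounds). *Cd3e* had 47 and 68 counts in control and 0 in both DMBA+TAM libraries, at least 4.65-fold lower. The control libraries thus also held transcripts of cells that crypt epithelium does not form. What part these shifts in markers have in any single gene's change was not tested.

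**Figure D4:**
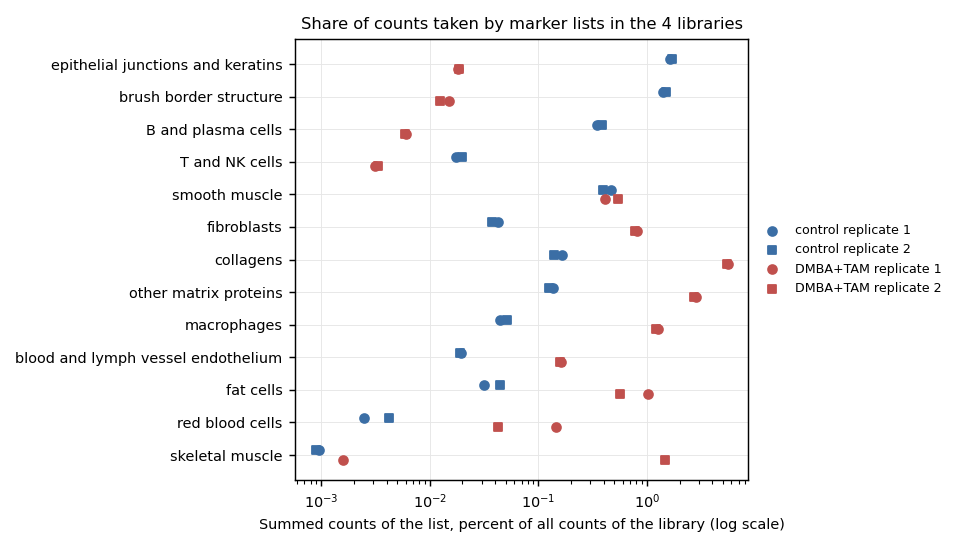
Summed counts of marker lists as percent of all counts of each library (log axis), with control in blue, DMBA+TAM in red, circles for replicate 1 and squares for replicate 2. Among the lists plotted, the 2 DMBA+TAM libraries lie furthest apart for skeletal muscle (0.00157 and 1.47 percent), red blood cells and fat cells.

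Secreted signals were among the genes that rose. Of 27 tested cytokines and chemokines 21 were higher and 4 lower (77.8 and 14.8 percent, against 29.0 and 35.3 percent of all genes tested, median 3.57). *Cxcl14* had 60 and 61 counts in control and 1399 and 2012 in DMBA+TAM (log2 fold change 6.84, SE 0.25, adjusted p = 2.22e-08). *Ccl6* rose by 1.92. The 4 that fell are chemokines and a cytokine of epithelium and lymphocytes: *Ccl25*, which draws T cells to the small intestine (6750 and 6913 counts against 3 and 6, log2 fold change -8.52), *Ccl28*, *Il18* and *Ccl5*. *Il6* had 0 counts in both control libraries and 18 and 17 in DMBA+TAM, and *Il1b* 7 and 0 against 82 and 51. In the TGF-beta family 18 of 25 genes were higher and 3 lower (72.0 percent higher, median 1.84). The ligand *Tgfb1* rose from 59 and 61 to 264 and 323 counts (log2 fold change 4.33, SE 0.15, adjusted p = 2.11e-08), the receptors *Tgfbr2* and *Tgfbr1* rose by 3.63 and 2.27, and the latent binding protein *Ltbp2* by 7.75. The BMP target *Id1* fell by 1.80 and the receptor *Bmpr1a* by 0.62. With library size only, 1 gene of this list was lower in place of 3, and *Bmpr1a* was at -0.12 (adjusted p = 0.414).

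Of 13 genes of the insulin-like growth factor system 7 were higher and 1 lower (53.8 and 7.69 percent, against 29.0 and 35.3 percent of all genes tested, median 1.85). The binding proteins *Igfbp5* (495 and 397 counts against 4547 and 4907, log2 fold change 5.46) and *Igfbp7* (4.89) and the ligand *Igf1* (4.03) rose, and the RNA-binding protein *Igf2bp2* fell by 2.55. Imprinted genes, many of which are high in fetal and mesenchymal tissue, were higher in 13 of 15 cases and lower in 1 (86.7 and 6.67 percent, median 3.23). *Rian*, *Meg3* and *Grb10* had log2 fold changes of 4.41, 3.51 and 3.76, and *Snrpn* was the one that fell (log2 fold change -1.61), a call not made with library size only (adjusted p = 0.134). Of 29 tested Hox genes, which mark position along the body, 16, or 55.2 percent, were higher and 0 lower (median 2.75, or 2.70 at the bounds). *Hoxb9* had 1 and 1 counts in control and 55 and 80 in DMBA+TAM, at least 91.8-fold higher, and *Hoxc6* 28 and 19 against 34 and 43 (log2 fold change 2.75).

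Genes downstream of growth factor signalling and of p53 were called in both directions. Of 18 ERK feedback and target genes 11 were higher and 4 lower (61.1 and 22.2 percent, median 1.42). *Spred1*, an inhibitor of the pathway, had 286 and 200 counts in control and 313 and 348 in DMBA+TAM (log2 fold change 2.49, SE 0.15, adjusted p = 3.62e-07), and the ERK-induced factor *Etv4* rose by 4.43. *Dusp6*, the ERK phosphatase, fell by 0.52 (SE 0.16, adjusted p = 0.0145), but was at -0.03 with library size only (adjusted p = 0.901). *Epha2*, a receptor tyrosine kinase, fell by 3.85. Of 21 immediate early genes 12 were higher and 8 lower (57.1 and 38.1 percent, against 29.0 and 35.3 percent of all genes tested, median 1.71). The YAP and TGF-beta target *Ccn2* had 50 and 47 against 1030 and 960 counts (log2 fold change 6.41, SE 0.26, adjusted p = 3.8e-08), whereas *Fos* fell by 2.22 (adjusted p = 2.1e-05) and *Klf6* by 1.24. Of 22 p53 targets 7 were higher and 7 lower (31.8 percent each, median 0.20), which with TMM is near the 29.0 and 35.3 percent of all genes tested. With library size only, 59.1 percent of them were higher and 22.7 percent lower, against 38.7 and 23.2 percent of all genes. *Cdkn1a* (p21) had 2438 and 2739 counts in control and 126 and 164 in DMBA+TAM and fell by 2.12 on the log2 scale (SE 0.14, adjusted p = 7.18e-07), *Ccng1* rose by 1.23 and *Perp*, a desmosome protein of epithelia, had 2197 and 2245 against 0 and 4 counts. Of 29 actin and adhesion genes 17 were higher and 8 lower (58.6 and 27.6 percent, against 29.0 and 35.3 percent of all genes tested, median 1.21). The integrins *Itga3*, *Itga6* and *Itgb4*, which anchor epithelia to laminin, fell by 4.95, 1.80 and 4.10, and *Itgb1*, shared by most cells, rose by 1.37.

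Genes of PP2A had no direction that held under both scalings. Of its 27 subunit and regulator genes 11 were lower, 1 higher and 15 not past the threshold (median -0.24). The 40.7 percent lower is near the 35.3 percent of all genes tested, whereas the 3.70 percent higher is below the 29.0 percent. With scaling by library size only, 3 were lower and 9 higher (median 0.25). Those are 11.1 and 33.3 percent, both below the 23.2 and 38.7 percent of all genes under that scaling. The catalytic subunit *Ppp2ca* had 1903 and 1957 counts in control and 283 and 328 in DMBA+TAM (log2 fold change -0.62, SE 0.11, adjusted p = 0.000784, and -0.12 with adjusted p = 0.404 with library size only). The second scaffold gene, *Ppp2r1b*, was the gene that rose, from 234 and 186 to 119 and 115 counts, which after scaling is a log2 fold change of 1.21 (SE 0.18, adjusted p = 0.000218). Both *Ppp2r1b* values in normalized CPM lay above both control values, as in 36.3 percent of all genes tested.

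Transcripts of the respiratory chain, cholesterol synthesis, the proteasome and cell division were mostly lower in DMBA+TAM, against 35.3 percent of all genes tested. Of 79 tested nuclear genes of the respiratory chain 77 were lower and 1 higher (median -1.94). The ATP synthase subunit *Atp5b* had 24696 and 24321 counts in control and 978 and 1380 in DMBA+TAM (log2 fold change -2.35, SE 0.14, adjusted p = 3.69e-07). The one that rose, *Cox8b*, is the form of muscle and brown fat (0 and 0 counts against 9 and 64). Of 12 tested genes of the mitochondrial genome 10 were lower and 0 higher (median -1.37), and their share of the counts went from 3.08 and 3.05 to 1.63 and 1.72 percent. All 24 genes of cholesterol synthesis were lower (median -2.10, or -2.08 at the bounds), with *Hmgcs1* falling by 2.09, as were 36 of 37 proteasome genes (median -1.02). With library size only, 64.9 percent of the proteasome genes were lower, against 23.2 percent of all genes. The groups did not overlap in *Atp5b* or *Hmgcs1*, as in most genes tested.

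Of 25 genes of DNA replication 21 were lower and 0 higher (median -1.18, or -1.14 at the bounds), and 13 were lower with library size only (52.0 percent, against 23.2 percent of all genes under that scaling). *Pcna* had 1926 and 1905 counts in control and 120 and 133 in DMBA+TAM (log2 fold change -1.88, SE 0.17, adjusted p = 7.36e-06). Of 25 mitosis genes 22 were lower and 0 higher (median -1.55). *Mki67*, the antigen used to stain dividing cells, had 2602 and 2255 against 140 and 233 counts, or 283 ± 16.0 against 88.3 ± 20.3 normalized CPM, and fell by 1.68 (SE 0.19, adjusted p = 2.75e-05). *Top2a* fell by 1.93. Ribosomal protein genes were lower in 53 of 81 cases (median -0.54), but in 9 with library size only (11.1 percent, median -0.04). The 2 called higher were *Rpl39l* and *Rpl3l*; *Rpl3l*, the muscle form, had 3 and 70 counts in DMBA+TAM. Of 25 genes of glycolysis and hypoxia 11 were lower and 8 higher (44.0 and 32.0 percent, near the shares of all genes; median -0.24, or 0.26 with library size only). *Ldha* fell by 1.81, and the glucose transporter *Slc2a1* and the mitophagy receptor *Bnip3* rose by 2.00 and 2.87.

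**Figure D5:**
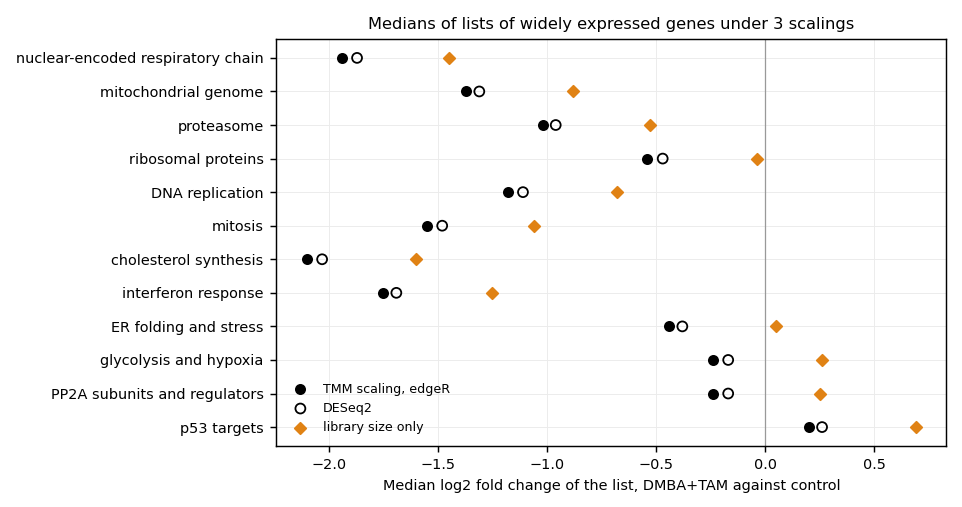
Median log2 fold change of DMBA+TAM against control for 12 lists of widely expressed genes under TMM scaling with edgeR (filled circles), DESeq2 (open circles) and scaling by library size only (diamonds). The respiratory chain stays below -1 in all of them, whereas the medians for ER folding, glycolysis and PP2A lie below 0 with TMM and above 0 with library size only.

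Interferon response genes were lower in 18 of 23 cases and higher in 1 (median -1.75). *Isg15*, a ubiquitin-like protein induced by interferon, had 2715 and 3645 counts in control and 70 and 91 in DMBA+TAM (log2 fold change -3.27, SE 0.20, adjusted p = 3.65e-07). *Oasl2* fell by 2.56, *Irf7* by 2.10 and *Ifit1* by 2.54, while *Gbp2* rose by 1.39. Of 10 MHC class II genes 2 were higher and 3 lower (smaller shares than the 29.0 and 35.3 percent of all genes tested, median -0.59, or -0.05 at the bounds). Their share lower was 0.00 percent with library size only, against 23.2 percent of all genes, and their share higher did not change. *H2-Eb1* had 45 and 66 counts in control and 417 and 482 in DMBA+TAM and *H2-Aa* 73 and 69 against 192 and 177, with log2 fold changes of 5.05 and 3.43, whereas the invariant chain *Cd74* had -0.84 (SE 0.36, adjusted p = 0.0604).

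A few abundant genes were not called with TMM scaling. The log2 fold change was -0.13 for *Eef1a1* (adjusted p = 0.409), -0.12 for *Hsp90ab1*, -0.21 for *Cfl1*, 0.08 for *Ddx5* and 0.13 for the chaperone *Hspa5*, and with library size only *Eef1a1*, *Hsp90ab1* and *Cfl1* turned to 0.36, 0.37 and 0.29. *Ddx5* and *Hspa5* then stood at 0.57 and 0.62, and *Eef1a1*, *Hsp90ab1*, *Ddx5* and *Hspa5* were called higher (adjusted p = 0.0296, 0.0233, 0.00374 and 0.0142). Of 22 genes of ER folding and stress 9 were lower and 1 higher (median -0.44, or 0.05 with library size only). The 40.9 percent lower is near the 35.3 percent of all genes tested, whereas the 4.55 percent higher is below the 29.0 percent. *P4hb*, the disulfide isomerase, fell by 1.93 (SE 0.18, adjusted p = 8.24e-06).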

How the data were processed

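Poly(A) RNA from organoids was sequenced after library construction with an unstranded NEBNext kit; whether counting used strand is not given in the sources used here, so overlapping and antisense genes cannot be separated. The authors aligned reads to mouse GRCm38 and counted them per gene (the submitters' processing notes name TopHat 2.0.12 and HTSeq 0.6.1), and deposited raw read counts and FPKM for 10 libraries in 1 table of 47074 lines. The 5 lines without a gene identifier were left out, and 98.77 percent of the identifiers were matched to GENCODE M21 names.

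Counts were fitted with edgeR 4.0.16 in R 4.3.3 (filterByExpr, TMM, quasi-likelihood test) over all 5 groups, which share 1 estimate of the spread, and DMBA+TAM was contrasted with control. p-values were adjusted by Benjamini-Hochberg over the 16179 genes tested, with a threshold of 0.05. A fold change against a group with at most 3 counts in each library is given as a bound against 3 counts per library. The deposited FPKM served for comparing levels between genes. Because 2 libraries against 2 cannot give an exact permutation p below 0.333, no such test was made for single genes. The scripts were tested on simulated data. Figures were drawn with matplotlib 3.10.9.

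Genes were named by rule: the 12 most abundant per group by FPKM, the 10 largest rises and falls with more than 3 counts in every library, the 5 largest bounded rises and falls, up to 4 of the most abundant members of each of 49 lists together with members called against the list's majority, and the 5 most abundant genes not called with an absolute log2 fold change under 0.25. *Adgre1*, *Adipoq*, *Ahrr*, *Anxa8*, *Cd3e*, *Cdx2*, *Csf1r*, *Cyp1a1*, *Etv4*, *Ezr*, *Gda*, *Hba-a2*, *Hoxc6*, *Il1b*, *Il6*, *Itgb1*, *Lep*, *Nqo1*, *Pdgfra*, *Slc2a2*, *Spi1*, *Tgfb1*, *Tgfbr1* and *Tiparp* lie outside the rule and were chosen after their values were seen. Some genes that the rule names are not reported here. The members and lists were chosen with earlier results of these data known. The alternatives were DESeq2 1.42.0, library size only and RLE scaling, no filter on low counts, the 4 libraries alone, the replicate number as a block, thinning to 1592366 counts, limma 3.58.1 on log2(FPKM + 1) and log2(FPKM + 0.1), and leaving out each library.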

Additional observations from a re-analysis of the deposited data

How the results depend on the processing

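The direction of the comparison as a whole rested on the scaling. The 4687 genes higher and 5709 lower with TMM became 6254 and 3755 with library size only, 6424 and 4164 with limma on log2(FPKM + 1), 4639 and 5074 with DESeq2 and 3893 and 4253 after thinning to the smallest library. With limma on log2(FPKM + 1), 1300 genes were at least 4-fold lower in place of 2293, a setting that changes the scaling, the model and the pseudocount together. Leaving out 1 library gave 3992 to 4192 genes higher and 5087 to 5203 lower. With the replicate block, 4617 genes were higher and 5602 lower; the numbers did not pair the libraries, with a correlation of deviations of -0.0189 between control and DMBA+TAM. Of 185 genes named in the text with a test, 157 kept their direction and call in every alternative that could test them. The call changed in at least 1 alternative for 25, and the sign of the estimate turned for 11, of which 8 are among those 25. *Eef1a1* went from -0.13 to 0.36 and *Hsp90ab1* from -0.12 to 0.37 with library size only and both limma settings. With library size only and with limma, *Rplp1* went from -0.42 to 0.08 and 0.07, *Tpt1* from -0.33 to 0.17 and 0.16 and *Cfl1* from -0.21 to 0.29 and 0.28. *Ahrr* went from -0.35 to 0.14 with library size only and 0.00 with limma on log2(FPKM + 1). *Ppp2r1a* was at -0.01 with no low-count filter. Over the fits that leave out 1 library, *Ppp2r1a* ranged from -0.01 to 0.06, *Hspa5* from -0.02 to 0.21, *Ddx5* from -0.01 to 0.11, *Ahrr* from -1.52 to 0.19 and *Hba-a2* from -0.43 to 0.82. *Acta1* ranged from -1.22 to 10.69 over these fits, with the lowest value without DMBA+TAM replicate 2, the library with the skeletal muscle genes. The causes were not tested. The depth of the DMBA+TAM libraries limits every fall to a bound where they hold 3 counts or fewer.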
